A study of Homo sapiens with 6 samples.

Results

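Matrix-attached DNA was mapped in H1 human pluripotent stem cells by MAR-seq, and the regions described here are those that lay at the ends of protein-coding genes. A region was taken when its centre was within 1 kb of either boundary of a protein-coding gene on an autosome, in the RefSeq table of GRCh38. The hPSC list held 7550 such regions of 39526 on autosomes, the shLUC list held 4992 of 38860, and the shHNRNPU list held 5120 of 35787. Together these were 17662 regions of 115751 on all chromosomes in the 3 lists. The hPSC group was H1 cells with no treatment, the shLUC group was H1 cells given an shRNA (short hairpin RNA) against LUC (the usual luciferase control), and the shHNRNPU group was H1 cells given an shRNA against HNRNPU. Each group had 2 samples, all of the 1 line H1 grown in mTeSR1 medium on Matrigel, and each group was deposited as 1 list. There was therefore no spread between samples and no test, and each interval below is a 95% interval that covers counting error only. All regions were 400 bp wide with a score of 0, so their height, p-value and depth are unknown. The lists hold no expression values, so neither the cell type nor the loss of HNRNPU could be checked, and hairpin and batch cannot be told apart when hPSC is set against the hairpin lists.

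The nuclear matrix is the scaffold of protein and RNA that stays behind when a nucleus is stripped of its soluble content, and MAR-seq reads the DNA that remains held by it after digestion with restriction enzymes. HNRNPU, also known as scaffold attachment factor A, is an abundant nuclear protein that binds both RNA and matrix-attached DNA. A gene starts at its promoter, where transcription factors and RNA polymerase assemble. Many mammalian promoters, above all those of broadly used genes, lie in CpG islands, which are rich in G and C and in the dinucleotide CpG, while many tissue-restricted promoters do not.

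To show what such DNA looks like, 5 promoters are printed as the 250 bases before the RefSeq start, 5′ to 3′ on the strand of the gene (GRCh38). Capitals mark the recognition sites of the enzymes used to free unattached DNA, namely CCGG for MspI, GGCC for HaeIII, GTAC for RsaI, AGCT for AluI, GGATCC for BamHI and CAGCTG for PvuII. These sites read the same on both strands, neighbouring sites can overlap, and each PvuII site holds an AluI site. In each class, the promoter nearest the class median in GC content was taken, among those with at least 100 bases inside a region of each list concerned. RPL21, a ribosomal protein gene (chr13:27251308-27251557, plus strand), stands for ribosomal genes with a start region in hPSC alone. GINS1, a subunit of the replicative helicase (chr20:25407423-25407672, plus strand), stands for replication genes of the same pattern. SOX30, a transcription factor of the SOX family (chr5:157671481-157671730, minus strand), stands for developmental transcription factors with a start region in both hairpin lists and not in hPSC. NIPBL, the cohesin loader (chr5:36876519-36876768, plus strand), stands for matrix and loop genes with a start region in all 3 lists. OR11H6, an olfactory receptor gene (chr14:20223460-20223709, plus strand), stands for the receptors with no start region.
RPL21: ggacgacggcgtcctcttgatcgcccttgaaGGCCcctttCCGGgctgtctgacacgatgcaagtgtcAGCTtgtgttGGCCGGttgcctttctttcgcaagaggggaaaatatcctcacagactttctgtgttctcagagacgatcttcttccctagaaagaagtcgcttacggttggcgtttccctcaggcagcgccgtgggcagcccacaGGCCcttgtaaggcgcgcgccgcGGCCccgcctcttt
GINS1: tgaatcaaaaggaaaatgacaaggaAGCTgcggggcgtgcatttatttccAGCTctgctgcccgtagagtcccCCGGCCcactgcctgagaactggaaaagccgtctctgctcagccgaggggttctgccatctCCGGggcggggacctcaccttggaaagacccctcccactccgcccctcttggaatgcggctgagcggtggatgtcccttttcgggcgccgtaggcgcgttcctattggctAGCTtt
SOX30: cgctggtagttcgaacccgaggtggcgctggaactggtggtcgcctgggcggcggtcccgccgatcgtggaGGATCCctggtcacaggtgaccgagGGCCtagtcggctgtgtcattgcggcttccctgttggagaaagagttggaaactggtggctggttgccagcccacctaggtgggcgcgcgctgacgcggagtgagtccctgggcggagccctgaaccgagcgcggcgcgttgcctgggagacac
NIPBL: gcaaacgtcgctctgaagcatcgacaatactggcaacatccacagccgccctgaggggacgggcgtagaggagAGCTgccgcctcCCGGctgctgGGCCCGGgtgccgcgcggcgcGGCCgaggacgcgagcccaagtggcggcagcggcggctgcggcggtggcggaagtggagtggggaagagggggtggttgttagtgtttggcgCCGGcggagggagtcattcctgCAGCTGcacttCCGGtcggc
OR11H6: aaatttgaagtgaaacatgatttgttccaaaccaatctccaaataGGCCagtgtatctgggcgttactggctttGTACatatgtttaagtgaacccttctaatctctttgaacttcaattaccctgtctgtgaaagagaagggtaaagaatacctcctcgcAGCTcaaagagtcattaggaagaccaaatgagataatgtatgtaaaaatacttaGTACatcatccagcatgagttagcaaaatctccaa
The hPSC regions at RPL21 and GINS1 covered all 250 bases, as did the shared hairpin region at SOX30. At NIPBL the hPSC region covered 155 bases and the hairpin region covered 194. GC content was 58.8% at RPL21, 60% at GINS1, 67.2% at SOX30 and 70% at NIPBL, against 37.2% at OR11H6. CpG followed a similar order, with 20 at RPL21, 16 at GINS1, 24 at SOX30, 28 at NIPBL and 2 at OR11H6. Enzyme sites did not, since NIPBL held 9 sites but SOX30 held 2 and OR11H6 held 4.

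Windows of 1 kb on each side of all gene boundaries made up 69.4 Mb, or 2.42% of the autosomal span. They held 19.1% of the hPSC regions (18.7 to 19.5%), 12.9% of the shLUC regions (12.5 to 13.2%) and 14.3% of the shHNRNPU regions (13.9 to 14.7%). The density in these windows was 108.8 regions per Mb in hPSC, 71.9 in shLUC and 73.8 in shHNRNPU. Outside them it was 11.4, 12.1 and 10.9 regions per Mb. In density, hPSC thus stood apart from the hairpin lists at gene ends, whereas outside the windows its value lay between theirs. Density does not show whether the regions lay at the same places, which is described below. The distance rule fell on a smooth slope, as 212 hPSC regions lay 900 to 1000 bp from the nearest boundary and 181 lay just outside, at 1000 to 1100 bp. The numbers were 199 and 174 in shLUC, and 180 and 165 in shHNRNPU.

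Gene-end regions were mostly gene-start regions. The strand was known for 15101 of the 19126 autosomal protein-coding genes, from the RefSeq promoter table, and was not known for any gene on chromosome 8. Among the 6233 hPSC gene-end regions with a known side, 92.5% (91.8 to 93.1%) lay at a start. The share was 87.7% (86.7 to 88.7%) of 3966 regions in shLUC and 89.1% (88.1 to 90.1%) of 4097 regions in shHNRNPU. Regions that lay at an end and at no start numbered 468 in hPSC, 487 in shLUC and 445 in shHNRNPU. End regions were thus about as many in the 3 lists, and the larger number of gene-end regions in hPSC was a larger number at starts, 5765 against 3479 and 3652.

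Taken over all pairs of a region and a start within 1 kb, the centre lay nearer the start in hPSC than in the hairpin lists. There were 6473 such pairs in hPSC, 3782 in shLUC and 3975 in shHNRNPU. A region near several starts was counted once for each. At least 688 regions in hPSC, 293 in shLUC and 310 in shHNRNPU were of this kind, and their part in the difference was not tested. The median centre lay 36.5 bp inside the gene in hPSC (28.5 to 42.5 bp), 128.5 bp inside in shLUC (117.5 to 140.5 bp) and 125.5 bp inside in shHNRNPU (115.5 to 136.5 bp). The centre was inside the gene for 55.7% of the hPSC pairs (54.5 to 56.9%), 69.9% of those of shLUC (68.4 to 71.3%) and 70.0% of those of shHNRNPU (68.5 to 71.4%). The fullest bin in each list was the first 200 bp of the gene, with 122.0 regions per 1000 starts in hPSC, 75.8 in shLUC and 82.2 in shHNRNPU. In the 200 bp before the start, hPSC still held 114.4 per 1000, while shLUC held 45.4 and shHNRNPU held 48.9. From 1 to 5 kb upstream, the starts were surrounded by fewer regions than at 5 to 10 kb. In hPSC there were 12.0 regions per 1000 starts and kb at 1 to 5 kb upstream and 19.7 at 5 to 10 kb on both sides. The values were 16.7 and 19.8 in shLUC, and 13.9 and 18.4 in shHNRNPU. On the inside, the mean from 1 to 5 kb was also lower in hPSC (17.5), but not in shLUC (20.6) or shHNRNPU (18.6). That mean includes the bin at 1000 to 2000 bp, on the flank of the start peak. This bin held 31.19 in hPSC, 29.73 in shLUC and 28.54 in shHNRNPU. From 2000 to 5000 bp inside, each bin of 1 kb was below the value at 5 to 10 kb in all lists. These bins held 14.97, 11.39 and 12.65 in hPSC, and 18.08, 17.15 and 17.28 in shLUC. In shHNRNPU they held 16.22, 14.7 and 14.77.

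Gene ends showed no peak. Within 1 kb of an end there were 25.9 regions per 1000 ends and kb in hPSC, 21.2 in shLUC and 19.9 in shHNRNPU, against 24.8, 23.5 and 21.8 at 5 to 10 kb. At the end itself there was a dip. The last 200 bp of the gene held 3.05 regions per 1000 ends in hPSC, 1.66 in shLUC and 1.26 in shHNRNPU, on 46, 25 and 19 regions. The 200 bp just past the end held 2.78, 1.06 and 1.59, on 42, 16 and 24 regions, so the dip lay on both sides. Between 400 and 600 bp inside the end the values were 6.16, 3.58 and 3.64.

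**Figure D1:**
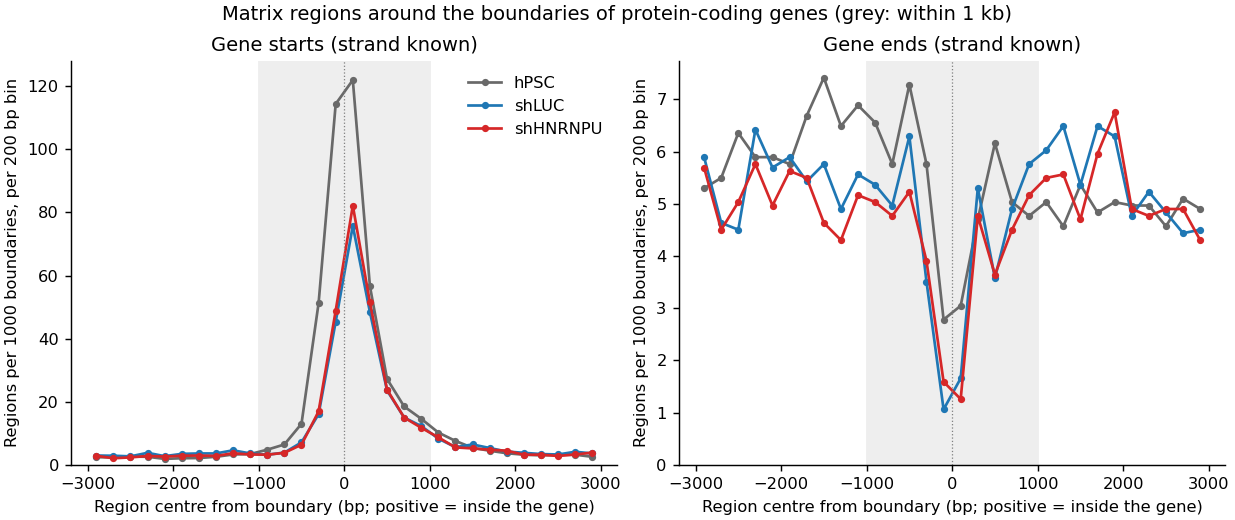
Number of region centres per 1000 boundaries in bins of 200 bp, against the distance from the start (left) or end (right) of protein-coding genes with a known strand, with positive distances inside the gene. Lines are the 3 lists, grey marks the 1 kb on each side, and the vertical scales differ. Starts peak at 122.0 in hPSC, 75.8 in shLUC and 82.2 in shHNRNPU, whereas ends dip to 3.05 or below in the 200 bp on each side.

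Of the 15101 genes with a known strand, 6367 had an hPSC region within 1 kb of the start, 42.2% of genes (41.4 to 42.9%). In shLUC 3725 genes did, 24.7% (24.0 to 25.4%), and in shHNRNPU 3923 did, 26.0% (25.3 to 26.7%). A region within 1 kb of the end was found in 777 genes in hPSC (5.15%), 640 in shLUC (4.24%) and 600 in shHNRNPU (3.97%). Most genes had 1 start region if any, since 106 genes had more than 1 in hPSC, 56 in shLUC and 52 in shHNRNPU. The start of 1712 genes was occupied in all 3 lists, and 6853 genes had no start region in any list. Occupied in hPSC alone were 3552 starts, the largest pattern, and 1240 were occupied in both hairpin lists and not in hPSC. The hairpin lists rarely stood alone, with 289 starts in shLUC alone and 352 in shHNRNPU alone.

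The comparison of shHNRNPU with shLUC asked how gene-end regions differed after knockdown. The number of autosomal regions differed by -7.91%, and that of regions away from gene ends by -9.45%. Gene-end regions were 128 more, a difference of 2.56%. Start-side regions accounted for it, with 3479 in shLUC and 3652 in shHNRNPU (4.97% more), while end-side regions numbered 595 and 554. The direction depended on the window. Within 500 bp of a boundary there were 3830 regions in shLUC and 4042 in shHNRNPU, but within 2 kb there were 6433 and 6407. Counted by gene over both boundaries, 1372 genes had more regions in shHNRNPU than in shLUC, 1206 had fewer and 16548 had as many. At starts 989 genes had more and 798 fewer, whereas at ends 157 had more and 197 fewer. No spread between cultures was available to weigh these differences, and the part of depth in them was not tested.

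Gene-end regions of the hairpin lists overlapped hPSC regions more often than other regions did, and the same held counted from hPSC. The hPSC list was also denser in the gene-end windows, with 108.8 regions per Mb against 11.4 outside. The shares below do not allow for density. Of the 4992 shLUC gene-end regions, 45.2% (43.8 to 46.6%) overlapped an hPSC region, against 9.65% of the other shLUC regions and 14.2% of all of them. Of the 5120 shHNRNPU gene-end regions, 46.9% (45.5 to 48.2%) overlapped an hPSC region, against 12.3% of the others and 17.3% of all. Counted from hPSC, 29.6% (28.6 to 30.7%) overlapped a shLUC region, where the whole list gave 14.0%, and 31.6% (30.6 to 32.7%) overlapped a shHNRNPU region, where the whole list gave 15.6%. The hairpin lists shared most of their regions everywhere. A shHNRNPU region overlapped 77.5% of the shLUC gene-end regions (76.4 to 78.7%), with 69.9% among other regions and 70.9% in the whole list. In the other direction the share was 75.6% (74.4 to 76.8%), with 77.2% among other regions and 77.0% in the whole list, so gene ends were not favoured there.

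**Figure D2:**
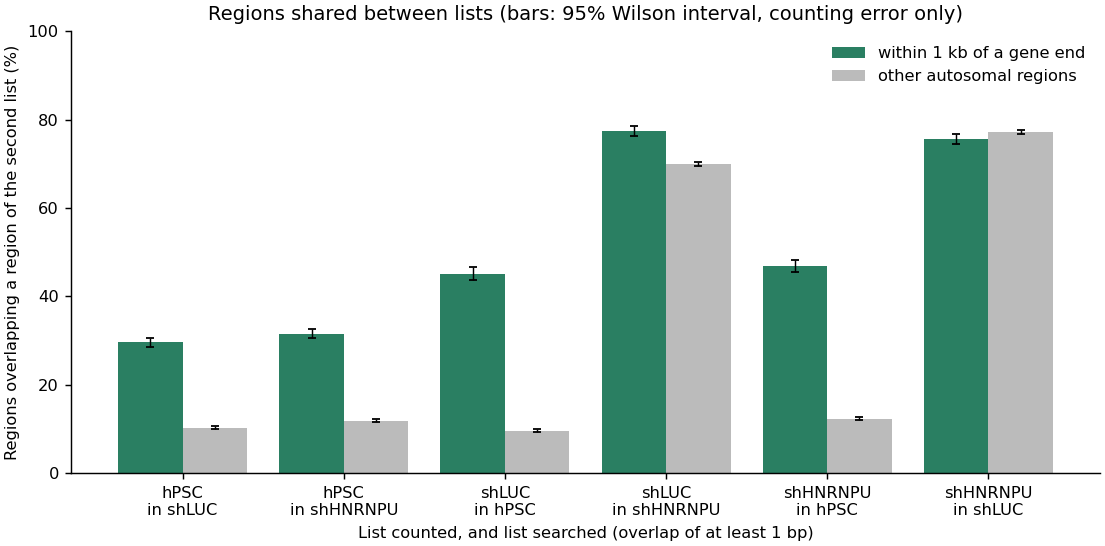
Share of the regions of one list, in percent, that overlap a region of a second list by at least 1 bp, for regions within 1 kb of a gene end (green) and all other autosomal regions (grey), with 95% Wilson intervals. The pairs with hPSC are the ones in which green stands well above grey, for example 45.2% against 9.65% for shLUC in hPSC, while shHNRNPU in shLUC shows 75.6% against 77.2%.

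Most gene-end regions shared with hPSC lay at starts. An hPSC region overlapped 51.4% of the shLUC regions found at starts alone (49.7 to 53.1%) and 15.0% of the 487 found at ends alone (12.1 to 18.4%). For shHNRNPU these shares were 52.1% (50.5 to 53.8%) and 18.0% of 445 (14.7 to 21.8%). Starts held hPSC regions more often than ends over all genes, so the shares need that background. Counted by gene, 58.9% of genes with a shLUC start region had an hPSC start region, against 42.2% of all genes. At ends this was 23.9% against 5.15%. For shHNRNPU it was 59.4% at starts and 27% at ends, so the excess over all genes was not confined to starts. Of the hPSC regions at starts alone, 31.1% overlapped a shLUC region and 33.2% a shHNRNPU region. In all, 1706 hPSC gene-end regions had a partner in both hairpin lists, and gene-end regions were 45.5% of the 3749 hPSC regions that did.

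Regions that were shared with hPSC were seldom the same interval. Of the shLUC gene-end regions with a shHNRNPU partner, 99.95% matched it to the base, but of those with an hPSC partner 19.5% did. For other regions shared by shLUC and hPSC this was 37.9%, and for those shared by the hairpin lists it was 23673 of 23674. Among 2113 genes with a single start region in both hPSC and shLUC, the shLUC centre lay deeper in the gene in 46.1%, less deep in 36.5% and at the same base in 17.3%. The median shift in these same genes was 0 bp (0 to 0 bp), and 87.5% of the centres were within 400 bp of each other. Between hPSC and shHNRNPU it was also 0 bp, over 2256 genes. In the same 2113 genes the median centre lay 81.5 bp inside the start in hPSC and 124.5 bp inside in shLUC. Over the 2256 genes it lay 76.5 bp inside in hPSC and 122.5 bp inside in shHNRNPU. These gaps were narrower than those between the list medians given above, which were over pairs of a region and a start and compared different sets of genes. Between shLUC and shHNRNPU, 99.4% of 2880 such genes had the region at the same base. Whether the hairpin lists were called separately or on common intervals is not known. Identical positions therefore do not show that positions were kept after knockdown.

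Gene-end regions found in 1 hairpin list were as often in hPSC as those found in both, or more often. There were 1121 shLUC gene-end regions with no shHNRNPU partner, of which 47.5% (44.6 to 50.4%) overlapped an hPSC region. Conversely, 1249 shHNRNPU gene-end regions had no shLUC partner, and 54.1% (51.4 to 56.9%) overlapped an hPSC region. For the 3871 shared ones the share was 44.5% (43.0 to 46.1%). Regions away from gene ends showed the same order at lower levels, with 12.1% of those in shLUC alone, 25.0% of those in shHNRNPU alone and 8.58% of the shared ones, so the order was not particular to gene ends. The regions found in shHNRNPU and not in shLUC lay at starts in 88.7% of cases with a known side, close to the 89.3% of the shared ones. Those found in shLUC and not in shHNRNPU did so in 82.3%.

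Promoter composition differed between the patterns in the median, with wide overlap. Promoters were taken for 13868 of the genes, those with a listed RefSeq start within 1 kb of the start boundary of the gene. GC content was computed over the 250 bases before that start. The median was 56.8% for promoters with a start region in no list, 62.8% with a region in hPSC alone, 69.6% in all 3 lists and 70.4% in both hairpin lists but not hPSC. CpG numbered 7, 19, 25 and 25 in the same order (medians). Lower and upper quartiles of GC were 45.2 to 65.2%, 56.4 to 68.8%, 62.8 to 75.2% and 63.2 to 76.4%. The intervals of the median overlapped between all 3 lists (69.2 to 70.4%) and both hairpin lists but not hPSC (69.6 to 70.8%). The hPSC list reached its plateau early, with a start region at 6.82% of the 924 promoters under 40% GC, 23.9% at 40 to 50%, 45.5% at 50 to 60%, 52.4% at 60 to 70% and 51.0% at 70% or more. In shLUC the share kept climbing, with 3.79%, 8.85%, 16.2%, 26.2% and 45.3%. In shHNRNPU it was 3.79%, 10.2%, 16.9%, 26.5% and 49.1%. At 70% GC or more, shHNRNPU (47.5 to 50.7%) lay above shLUC (43.7 to 46.9%) and next to hPSC (49.4 to 52.6%).

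Other sequence features went with composition. A TATA box (TATAAA on either strand) was present in 14.7% of promoters with no region, 5.20% of those with a region in all lists and 9.45% of all promoters. A GC box (GGGCGG on either strand) was present in 40.1%, 76.0% and 56.8%. A CCAAT box (CCAAT on either strand) was present in 36.6%, 29.8% and 34.5%, so it varied least. The mean number of MspI sites was 1.42 in promoters with no region, 2.31 with a region in hPSC alone, 3.08 in all lists and 3.13 in both hairpin lists but not hPSC. HaeIII sites numbered 2.08, 2.48, 3.12 and 3.44. AluI and RsaI sites, which hold A and T, were fewer where regions were found, with 1.17 AluI sites in promoters with no region and 0.933 in those with a region in all lists. RsaI sites numbered 0.307 and 0.215, and PvuII sites 0.163 and 0.128. BamHI sites, which also hold A and T, went the other way, with 0.056 and 0.067. Whether the enzyme sites themselves set which promoters were recovered was not tested.

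**Figure D3:**
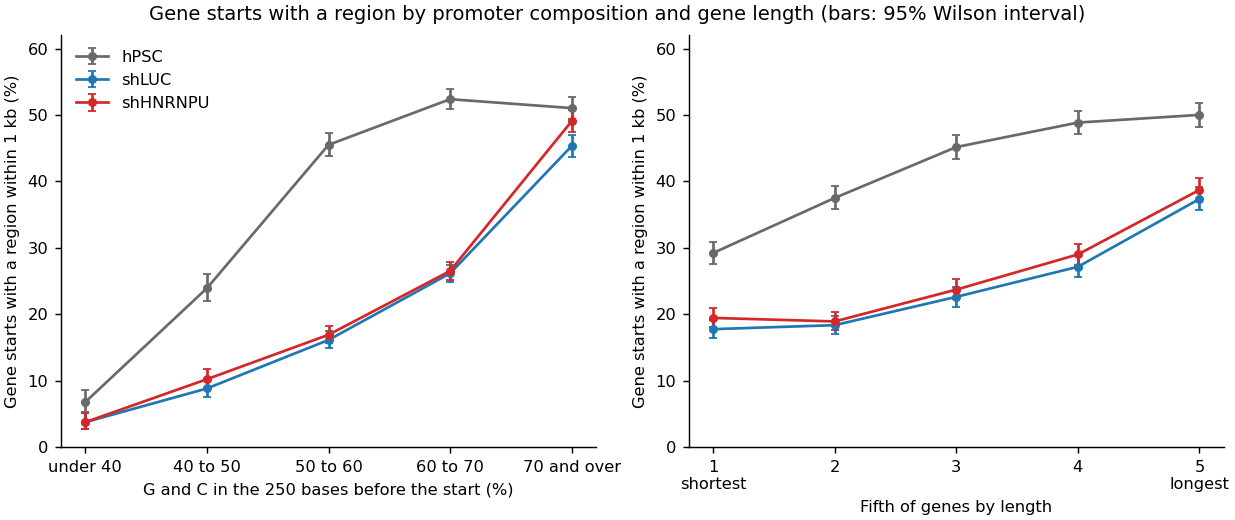
Share of genes with a region within 1 kb of the start, in percent with 95% Wilson intervals, by the GC content of the 250 bases before the start (left) and by gene length in 5 groups of equal size (right), for the 3 lists. The hPSC line levels off near 52.4% above 60% GC while the hairpin lines climb to 45.3% and 49.1%, and all 3 lines climb with gene length.

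Genes with a start region were longer than the rest. The median length was 25.9 kb over all genes (25.1 to 26.6 kb), 33.7 kb for genes with an hPSC start region (32.4 to 35.1 kb), 40.9 kb in shLUC (38.8 to 43.6 kb) and 40.7 kb in shHNRNPU (38.3 to 43.2 kb). Among the shortest genes, up to 7.28 kb, 29.2% had an hPSC start region, 17.8% a shLUC and 19.5% a shHNRNPU one. Among the longest genes, from 87.3 kb, the shares were 50.0%, 37.4% and 38.7%. End regions were found in shorter genes, with a median length of 15.0 kb (hPSC), 16.1 kb (shLUC) and 17.6 kb (shHNRNPU). A single region can lie near both boundaries of a short gene. For end regions away from any start the medians were 23.0, 19.6 and 21.9 kb, and the hPSC interval (17.9 to 28.1 kb) held the median of all genes.

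The longest genes with a start region in all 3 lists were PTPRD, CCSER1, GPC5, NAALADL2 and CNTN5. PTPRD, a receptor tyrosine phosphatase of 2298.8 kb on chromosome 9, had its hPSC region centred 23.5 bp inside the start and the shared hairpin region 26.5 bp outside it. GPC5, a glypican of 1468.6 kb, and CNTN5, a contactin of 1337.9 kb that acts in neural cell adhesion, each had 1 start region in each list. The shortest named genes of this kind included OXT, FERD3L, MRPL41 and HBM, all under 1 kb. OXT, which encodes the precursor of oxytocin, spans 0.898 kb on chromosome 20 and had 1 region per list, which counted at both its start and its end. FERD3L, a basic helix-loop-helix transcription factor, had the region at 19144911 to 19145310 on chromosome 7 in all 3 lists, to the base, and a further one in hPSC upstream of the start.

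Close gene pairs were then examined, since many promoters are shared by neighbours that point away from each other. There were 718 head-to-head pairs with starts up to 1 kb apart, and 61.7% (58.1 to 65.2%) held an hPSC region within 1 kb of the facing starts. Isolated starts, with no other boundary within 2 kb, held one in 39.1% of 11361 cases (38.2 to 40.0%). In the hairpin lists the interval of the pairs held the share of isolated starts. The shares were 25.2% (22.2 to 28.5%) against 25.1% in shLUC, and 26.5% (23.4 to 29.8%) against 26.3% in shHNRNPU. The wider span of a pair and its 2 starts were not allowed for. The 363 tandem pairs held a region in 40.8% in hPSC, 20.4% in shLUC and 20.1% in shHNRNPU. The 331 tail-to-tail pairs, which hold no start, did so in 5.44% (3.47 to 8.43%), 5.14% (3.23 to 8.07%) and 5.14% (3.23 to 8.07%). Isolated ends held one in 3.42%, 3.42% and 3.03%, which in hPSC and shHNRNPU is just below the interval of the pairs. These pairs rest on 18, 17 and 17 with a region.

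**Figure D4:**
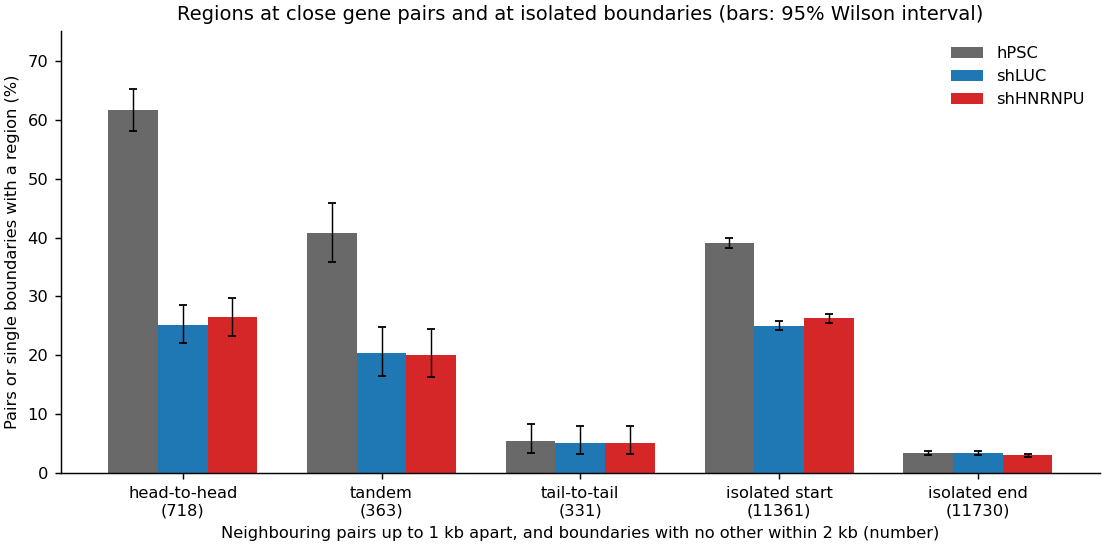
Share of close gene pairs (up to 1 kb apart) and of isolated boundaries that hold a region, in percent with 95% Wilson intervals, by orientation and list. In hPSC head-to-head pairs reach 61.7% and isolated starts 39.1%, whereas in both hairpin lists these classes lie between 25.1% and 26.5%.

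Of the 718 head-to-head pairs, 94 held a region in all 3 lists and 203 in none. PBRM1 and GNL3 on chromosome 3 are 6 bp apart. They encode a subunit of a SWI/SNF chromatin remodeller and a nucleolar GTP-binding protein known from stem cells. Their hPSC region spanned 52685782 to 52686181 and the region in both hairpin lists spanned 52685687 to 52686086, so each covered the gap. HAGH, a hydrolase of the glyoxalase pathway, and FAHD1 on chromosome 16 are 11 bp apart. Their hPSC region (1826881 to 1827280) crossed the gap, but the region in both hairpin lists (1826308 to 1826707) lay within HAGH, 686.5 bp inside its start. HPS4 with SRRD and MRM2 with NUDT1 were further pairs with 1 region in each list.

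Groups of genes were described next, by the share of members with a start region beside the share over all genes (42.2% in hPSC, 24.7% in shLUC, 26.0% in shHNRNPU). Members whose strand was not known were left out of each group. DNA replication genes had a high share in hPSC, while in the hairpin lists their intervals held the share over all genes. Of 35 DNA replication genes, 26 had a start region in hPSC (74.3%, 57.9 to 85.8%), 6 in shLUC (17.1%, 8.10 to 32.7%) and 8 in shHNRNPU (22.9%, 12.1 to 39.0%). The start was occupied in hPSC alone in 18 (51.4%, against 23.5% of all genes), among them CDC7, a kinase that fires origins, CDC45 and GINS1 of the replicative helicase, and MCM3, MCM6 and MCM7 of its ring. It was occupied in all lists in 4 (11.4%, against 11.3% of all genes), namely PCNA, the sliding clamp, PRIM2, a primase subunit, and the polymerase subunits POLD2 and POLE2. At PCNA the centres lay 291.5 bp upstream of the start in hPSC and 459.5 bp upstream in both hairpin lists.

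Genes for energy, protein turnover and tRNA charging also lay above the share of all genes in hPSC. Of 41 proteasome genes, 30 had a start region in hPSC (73.2%, 58.1 to 84.3%), 9 in shLUC (22.0%, 12.0 to 36.7%) and 8 in shHNRNPU (19.5%, 10.2 to 34.0%), so both hairpin intervals held the share of all genes. PSMD11, a subunit of the regulatory lid, was the 1 with a start region in all lists. Of 64 respiratory chain genes, 43 had one in hPSC (67.2%, 55.0 to 77.4%) and 9 in each hairpin list (14.1%, 7.58 to 24.6%), an interval just below the share of all genes. SDHB of complex II, NDUFA8 of complex I, COX5B and COX8C of complex IV, and ATP5F1E of the ATP synthase had one in all lists. Of 27 aminoacyl-tRNA synthetases, which charge tRNAs, 17 had one in hPSC (63.0%, 44.2 to 78.5%), 3 in shLUC (11.1%, 3.85 to 28.1%) and 4 in shHNRNPU (14.8%, 5.92 to 32.5%), and the hairpin intervals again held the share of all genes.

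Ribosomal protein genes had hPSC shares whose intervals held the share of all genes, and lay below it in shLUC. Of 63 cytosolic ones, 31 had a start region in hPSC (49.2%, 37.3 to 61.2%), 6 in shLUC (9.52%, 4.44 to 19.3%) and 11 in shHNRNPU (17.5%, 10.0 to 28.6%). RPLP0 and RPS7 had one in all lists. Of 68 mitochondrial ones, 36 had one in hPSC (52.9%, 41.2 to 64.3%), 5 in shLUC (7.35%, 3.18 to 16.1%) and 10 in shHNRNPU (14.7%, 8.19 to 25.0%). In shHNRNPU the interval held the 26.0% of all genes for the cytosolic group and lay below it for the mitochondrial one. In both groups shHNRNPU held more than shLUC, with 7 cytosolic genes occupied in shHNRNPU and not in shLUC against 2 the other way, and 6 mitochondrial genes against 1. Over all genes the direction was the same, with 971 starts occupied in shHNRNPU and not in shLUC against 773 the other way. The intervals of the hairpin lists overlapped. The median promoter GC of these groups, 59.6% and 60.8%, was below that of all promoters (62.4%).

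Splicing genes included HNRNPU itself. Of 33 genes for hnRNP and SR proteins, which package and splice RNA, 20 had a start region in hPSC (60.6%), 8 in shLUC (24.2%, 12.8 to 41.0%) and 7 in shHNRNPU (21.2%, 10.7 to 37.8%). HNRNPUL2, HNRNPAB and SRSF8 had one in all lists. The HNRNPU gene on chromosome 1 had a start region in hPSC (244864261 to 244864660, centre 82.5 bp inside) and in shHNRNPU (244864105 to 244864504, centre 238.5 bp inside). In shLUC the nearest region (244863242 to 244863641) was centred 1101.5 bp inside the start, just beyond the 1 kb limit, and shHNRNPU held this region too.

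Genes for the matrix, the lamina and chromatin loops lay above the share of all genes in each list, narrowly so in the hairpin lists. Of 26, 20 had a start region in hPSC (76.9%, 58.0 to 89.0%), 11 in shLUC (42.3%, 25.5 to 61.1%) and 12 in shHNRNPU (46.2%, 28.8 to 64.5%). CTCF, the insulator protein, NIPBL, TOP2B (topoisomerase), SMARCA4 (a chromatin remodeller), NUP153 of the nuclear pore, SUN2 of the nuclear envelope and TMPO (lamina-associated polypeptide) had one in all lists (26.9% of the group, against 11.3% of all genes). LMNA (lamin A and C), MATR3 (matrin), SAFB, SATB1, SMC3 of cohesin and its release factor WAPL had one in hPSC alone. LBR (lamin B receptor), LMNB2 (lamin B2), STAG1 of cohesin and SYNE1 had one in both hairpin lists and not in hPSC. LMNB1 and SYNE2 had none in any list.

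Developmental transcription factors showed the opposite order of lists. Of 182 autosomal genes of the HOX, PAX, SOX, FOX and related families, 118 had a known strand and the rest could not be placed. Among the 118, 37 had a start region in hPSC (31.4%, 23.7 to 40.2%), 51 in shLUC (43.2%, 34.6 to 52.2%) and 48 in shHNRNPU (40.7%, 32.2 to 49.7%). This was the group with more start regions in both hairpin lists than in hPSC, and its intervals overlapped. In all, 24 had a start region in both hairpin lists and not in hPSC (20.3%, against 8.21% of all genes), among them FOXD3, LHX9, POU3F1, MEIS1, HOXA11, DLX2 and IRX4. A further 18 had one in all lists (15.3%, against 11.3% of all genes), including SOX2, MEIS2, HOXD8, HOXD10, SIX2 and POU3F2, and 13 in hPSC alone (11.0%, against 23.5% of all genes), including SOX1, PAX5 and NKX2-1. The median promoter GC of the group was 66.4%.

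Pluripotency genes were mixed. Of 34 on autosomes, 25 had a known strand. Among the 25, 7 had a start region in hPSC (28%), 5 in shLUC (20%) and 7 in shHNRNPU (28%). SOX2 and KLF4, both used to reprogram cells, had one in all lists, at a different position in hPSC. At SOX2 on chromosome 3 the centre was 876.5 bp inside the start in hPSC and 550.5 bp inside in both hairpin lists, and at KLF4 on chromosome 9 it was 338.5 bp upstream in hPSC and 204.5 bp inside in the hairpin lists. L1TD1, an RNA-binding protein of pluripotent cells, and FGF2, a growth factor that keeps human cells pluripotent, had one in hPSC and shHNRNPU and not in shLUC. At L1TD1 it was the same interval in both (62194595 to 62194994). TERT (telomerase), TFCP2L1 and ZIC2 had one in both hairpin lists and not in hPSC, and UTF1, ZFP42 and ZSCAN10 had one in hPSC alone. NANOG had no start region, but an hPSC region lay 545.5 bp inside its end.

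**Figure D5:**
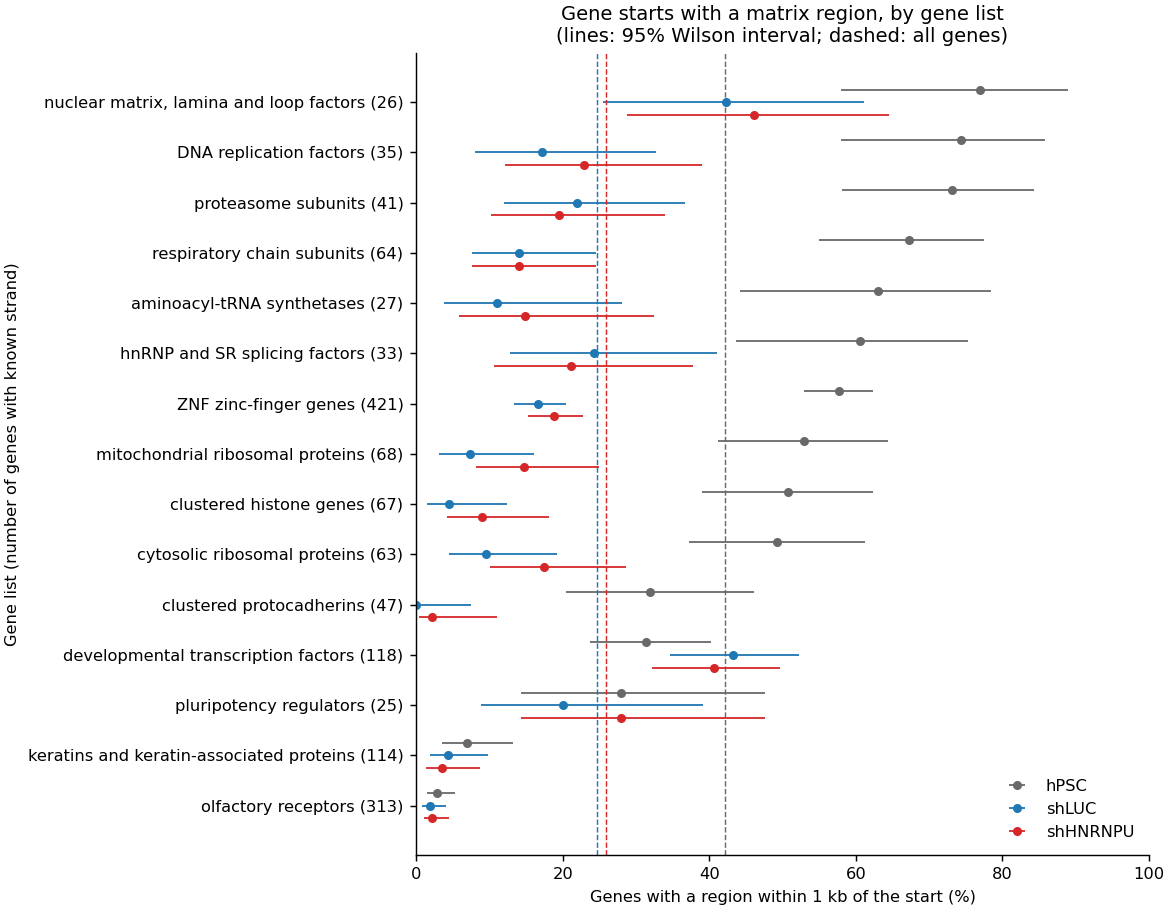
Share of the genes of each list with a region within 1 kb of the start, in percent with 95% Wilson intervals, for the 3 region lists. Brackets give the number of genes with a known strand, and dashed lines mark the share over all genes. Replication, proteasome and respiratory chain genes lie right of the dashed line in hPSC, while in the hairpin lists many intervals reach the line, developmental transcription factors are reversed (31.4% in hPSC, 43.2% in shLUC), and olfactory receptors and keratins lie at 7.02% or below.

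Large gene clusters differed from each other. Of 421 ZNF genes, which encode zinc-finger proteins, 243 had a start region in hPSC (57.7%, 53.0 to 62.3%), 70 in shLUC (16.6%, 13.4 to 20.5%) and 79 in shHNRNPU (18.8%, 15.3 to 22.8%). Of these, 169 had one in hPSC alone, 40.1% of the group against 23.5% of all genes. Of 67 clustered histone genes, 34 had a start region in hPSC (50.7%), 3 in shLUC (4.48%) and 6 in shHNRNPU (8.96%). They are short, with a median length of 0.496 kb, so that 34 also had an end region in hPSC, and the start regions were 26 distinct ones. Of 313 olfactory receptor genes, 9 had a start region in hPSC (2.88%), 6 in shLUC (1.92%) and 7 in shHNRNPU (2.24%). Keratin genes were low as well, with 8, 5 and 4 of 114. Promoters in these clusters were poor in GC, with medians of 43.6% for histones, 37.2% for olfactory receptors and 41.4% for keratins, and the 50.7% of histone genes in hPSC stood beside 23.9% of all promoters at 40 to 50% GC.

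Clustered protocadherins, cell adhesion genes of neurons of which the alpha and gamma sets share their last exons, had 15 of 47 start regions in hPSC (31.9%), 0 in shLUC (upper bound 7.56%) and 1 in shHNRNPU (2.13%). The latter was at PCDHGB4, with the same coordinates as in hPSC (141387569 to 141387968 on chromosome 5). At ends 20, 21 and 22 of them had a region, but the genes share an end and these were 1 distinct region in hPSC, 2 in shLUC and 3 in shHNRNPU.

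Single genes with many regions were those with 6 over the 3 lists. ANKLE1, a nuclease of the LEM-domain family, had 2 start regions in each list, and the one at 17282661 to 17283060 on chromosome 19 was the same in all. CHN1, a Rac-specific GTPase activator, and FCHO2, an endocytosis factor, also had 2 start regions in each list. FOXJ3, a forkhead transcription factor, had 1 in hPSC, 3 in shLUC and 2 in shHNRNPU. EIF4A1, the RNA helicase of translation initiation, had 2 start regions and 1 end region in hPSC, 1 start region in shLUC, and 1 of each in shHNRNPU. DHRS13 had 1 region at each boundary in every list, with the end region at 28897269 to 28897668 on chromosome 17 in all of them. GRK3, a receptor kinase, had 2 regions in each list, but its strand was not known.

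Between the hairpin lists no gene changed by more than 2 regions, and changes beyond 1 region were few. Among genes whose hPSC and shLUC counts were both above, or both below, that of shHNRNPU, 9 of 666 with fewer regions in shHNRNPU and 15 of 555 with more differed by more than 1. C2orf76 had 1 region at each boundary in hPSC and shLUC and none in shHNRNPU, with the same start region in both (119366739 to 119367138 on chromosome 2). SLC16A7, a monocarboxylate transporter, had 2 start regions in hPSC and in shLUC and 0 in shHNRNPU. ATXN7L3, a subunit of the SAGA deubiquitinase module, had 2 start regions in shLUC and 0 in shHNRNPU, and in hPSC it had 1 region, at its end. In the other direction, SETD7, a lysine methyltransferase, had 1 region in hPSC, 1 in shLUC and 3 in shHNRNPU. GDF11, a TGF-beta family ligand, had 0, 0 and 2, and KAZALD1, a secreted protein related to insulin-like growth factor binding proteins, had 0, 1 and 3. APCDD1, an inhibitor of Wnt signalling, had 2, 1 and 3, so that hPSC lay midway, and its 2 end regions were in shHNRNPU. Each is a presence or absence in 1 list with no height behind it.

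By chromosome, the gene-end share was highest on chromosome 19 in each list, with 38.0% of regions in hPSC, 21.4% in shLUC and 24.1% in shHNRNPU. The lowest shares were 12.2% on chromosome 18 in hPSC, 9.77% on chromosome 13 in shLUC and 11.5% on chromosome 13 in shHNRNPU. Per gene the order turned in the hairpin lists, where chromosome 19 had the lowest share of genes with a gene-end region, 17.7% in shLUC and 18.5% in shHNRNPU, and chromosome 18 the highest, 41.1% and 41.9%. In hPSC chromosome 19 was also below all genes, with 38.0% against 43.3%, and chromosome 21 was lowest, with 32.2%.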

How the data were processed

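MAR-seq was performed in H1 cells with 2 samples per group. The submitters' processing notes name hg38, cutadapt, Bowtie2, SAMtools, MACS2 and deepTools, without versions or roles, and how 2 samples became 1 list, the threshold and the use of input are not given in the sources used here. The deposited lists give chromosome, start and end, and a score that the authors set to 0 for all regions, so no height was used. Values are positions, used as GRCh38 and counted from 1. Depth is unknown.

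Regions were joined to the RefSeq GRCh38.p14 gene table by their centre. Strand and promoter sequences came from the RefSeq promoter table, for 15101 of 19126 genes. Overlap meant at least 1 shared bp. Intervals are Wilson intervals for shares and order-statistic intervals for medians, at 95%. No test was made. The members and 15 gene lists were chosen with earlier results of these data known. Named genes were those with most regions, the largest differences between hairpin lists where hPSC and shLUC both lay above, or both below, shHNRNPU, and the longest and shortest with a start region in all lists. Other genes of the lists were named after their values were seen. The code was tested on simulated positions. Tables were built with pandas 2.3.3 and numpy 2.4.6 in Python 3.11.15, intervals with scipy 1.17.1, and figures with matplotlib 3.10.9.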

Additional observations from a re-analysis of the deposited data

How the results depend on the processing

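Of 114 values recomputed over 10 settings, 67 stayed within the main interval, or within 1.5 times for counts. A further 47 moved beyond it, and 0 changed sign. Only the differences in sharing and in promoter GC could change sign, since counts, shares and lengths cannot be negative. The sharing difference of shHNRNPU with shLUC (-1.59 points) was not recomputed. With 500 bp in place of 1 kb, the start-side share was 95.8% in hPSC, 93.8% in shLUC and 94.4% in shHNRNPU, and the share of genes with a start region 36.7%, 20.2% and 21.6%. The shared share was 78.8% for shLUC with shHNRNPU and 49.8% for shLUC with hPSC, 39.5 points above other regions. With 2 kb, the start-side shares were 86.6%, 80.1% and 82.0%, the gene shares 45.8%, 29.1% and 30.1%, and the median lengths 37.3 kb (shLUC) and 37.4 kb (shHNRNPU). The shared shares were 76.0% for shLUC with shHNRNPU, 38.0% for shLUC with hPSC (28.5 points above others) and 27.6% for hPSC with shLUC (17.5 points). Counting any base of a region gave start-side shares of 91.0%, 85.8% and 87.5%, gene shares of 43.3%, 25.8% and 27.1%, and 43.3% for shLUC with hPSC (33.7 points). On all chromosomes the hPSC gene share was 41.2%. Requiring overlap of 50% of both regions gave 34.5% for shLUC with hPSC (26.6 points) and 22.7% for hPSC with shLUC (14.4 points), and centres within 1 kb gave 52.2% (40.8 points) and 34.4% (22.2 points). With isolated boundaries alone, the hPSC gene share was 39.1%, the shHNRNPU start-side share 90.1%, and the median lengths 39.7 kb, 48.2 kb and 47.4 kb. The median promoter GC of genes with a region then exceeded that of genes without by 7.2 points in hPSC, 10.8 in shLUC and 11.2 in shHNRNPU, in place of 4.8, 8.8 and 9.6. Apart from what each setting changes by construction, the cause was not tested. The larger gene-end count of shHNRNPU than of shLUC turned at 2 kb, with 6407 against 6433.

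No paired analysis was possible because the samples of a group were deposited as a single list, which also precluded leaving out a replicate. Depth and calling threshold are unknown and limit each difference in number between lists. Absence from a list does not show absence from the matrix.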

Other observations

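Promoters away from gene boundaries gave a second set of starts. RefSeq lists 4009 promoters inside 2597 genes at more than 2 kb from any boundary of a protein-coding gene, so none of the gene-end regions lay at them. A region centre lay within 1 kb of 24.8% of these promoters in hPSC (23.5 to 26.2%), 17.9% in shLUC (16.7 to 19.1%) and 18.1% in shHNRNPU (16.9 to 19.3%). These regions were 2.58% of the hPSC regions away from gene ends, 1.69% in shLUC and 1.86% in shHNRNPU. Of the 571 shLUC regions at internal promoters, 44.5% (40.5 to 48.6%) overlapped an hPSC region, against 9.05% of the 33297 other shLUC regions away from gene ends. The share was close to that of the shLUC gene-end regions (45.2%). Neither share allows for the density of hPSC regions at these places.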
